A study of Homo sapiens with 6 samples.

Results

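Galectins are proteins that bind sugars ending in galactose, and 7 of their genes, LGALS12, LGALS1, LGALS2, LGALS3, LGALS4, LGALS8 and LGALS9, were followed here in MDA-MB-231 cells, an established human line of triple-negative breast cancer. The genes were chosen by name from the 17100 transcripts of the deposited count table, with the difference between the groups in these counts already known. Their levels and differences are therefore given as a description without a test. All 7 were in the table, and 5 had enough reads for the fit across 13322 genes, whereas LGALS2 and LGALS4 did not.

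The study compared 3 RNA libraries of vehicle-treated cells with 3 of cells given 1 µM guadecitabine (SGI-110) for 96 h and then left untreated for 24 h. Both groups were the same line, and the study's methods give RNA from independent experiments. Guadecitabine is a precursor of decitabine, which is built into DNA during replication and traps DNA methyltransferases, so that methylation of CpG sites is lost as cells divide. The libraries hold bulk RNA, in which fewer cells that express a gene and less RNA per cell cannot be told apart.

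Galectins share a carbohydrate recognition domain and are made without a signal peptide, so that they act both inside the cell and, after unconventional release, on glycoproteins at its surface. LGALS1 and LGALS2 are prototype galectins that form dimers, LGALS3 is the chimera galectin with a long N-terminal tail, and LGALS4, LGALS8, LGALS9 and LGALS12 carry a pair of recognition domains in tandem. LGALS1 and LGALS3 are widely made by tumor cells. LGALS12 is best known from fat cells, LGALS4 and LGALS2 from the gut, LGALS8 as a sensor of damaged endosomes and LGALS9 as a ligand of immune receptors.

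The sequences before the transcription start show how far the genes differ in the CpG sites at which the drug acts. Of the 7 genes, 5 had an entry in the RefSeq promoter table of build GRCh38.p14, LGALS12 and LGALS1 being the others. In the 250 bases before the start, the counts of CpG were 32 for LGALS3, 6 for LGALS4, 5 for LGALS2 and 1 for LGALS9. LGALS8 had 3 listed starts, with 2, 14 and 21 CpG. The median over 35116 promoters was 11, 9.52% of them had at least as many CpG as LGALS3 and 14.7% had at most as many as LGALS9. The windows with the most and the fewest CpG are printed 5′ to 3′, LGALS3 from chr14:55129002-55129251 and LGALS9 from chr17:27630938-27631187, both on the plus strand, with each CpG in capitals. CpG is a letter pair and reads the same on both strands. Methylation of these windows was not analysed here.
LGALS3: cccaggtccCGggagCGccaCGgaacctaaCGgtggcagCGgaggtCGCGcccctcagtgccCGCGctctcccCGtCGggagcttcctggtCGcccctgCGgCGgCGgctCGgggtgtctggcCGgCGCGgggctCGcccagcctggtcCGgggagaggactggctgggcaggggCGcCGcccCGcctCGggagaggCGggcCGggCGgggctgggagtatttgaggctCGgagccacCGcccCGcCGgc
LGALS9: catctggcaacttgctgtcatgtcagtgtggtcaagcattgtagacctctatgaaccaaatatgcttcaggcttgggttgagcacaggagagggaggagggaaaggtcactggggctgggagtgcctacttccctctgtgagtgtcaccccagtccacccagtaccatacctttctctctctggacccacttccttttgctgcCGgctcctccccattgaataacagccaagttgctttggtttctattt

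LGALS12 was the galectin with the largest difference. It lies on chromosome 11 from 63273524 to 63284246 on the plus strand of hg19. Its reads were 1584, 1518 and 2088 in vehicle 1, 2 and 3, and 86, 36 and 67 in guadecitabine 1, 2 and 3. As RPKM, which is reads per kb of exon scaled to library size, this was 49.4, 52.5 and 52.8 in the vehicle libraries and 2.28, 2.40 and 2.21 in the guadecitabine libraries. Every guadecitabine library was far below every vehicle library, and libraries of the same group lay close together. The mean level went from 51.5 ± 1.88 to 2.297 ± 0.0934 (SD, n = 3 each), a 22.5-fold lower level (log2 fold change -4.49, SE 0.12, 95% interval -4.76 to -4.23). This was the 8th largest fall in fitted log2 fold change among the 13322 genes. Among all transcripts ordered by level, LGALS12 went from rank 1913 in vehicle to rank 9997.

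LGALS1 was the most abundant galectin in both groups and the other tested galectin with a lower level after guadecitabine. It lies on chromosome 22 from 38071613 to 38075809. Its levels were 4187, 3784 and 2538 RPKM in the vehicle libraries and 1827, 2540 and 2063 in the guadecitabine libraries. The groups met at their edges, since, in counts scaled by the TMM method and not divided by length (CPM), vehicle 3 was at 1416.4 and guadecitabine 2 at 1417.05, whereas with library totals alone the lowest vehicle library, at 1482, was above the highest guadecitabine library, at 1419. The mean went from 3503 ± 860 to 2143 ± 363 (SD, n = 3 each), 1.64-fold lower (log2 fold change -0.71, SE 0.19, 95% interval -1.13 to -0.28). LGALS1 ranked 6 among all transcripts in vehicle and 12 after guadecitabine.

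LGALS3, LGALS8 and LGALS9 had slightly higher means after guadecitabine, and each 95% interval of the difference included 0. LGALS3, on chromosome 14 from 55595935 to 55612148, had 250.3, 240.3 and 238.5 RPKM in vehicle and 242.1, 267.4 and 276.7 after guadecitabine. Guadecitabine 1 lay inside the vehicle range and the other libraries of its group above it (log2 fold change 0.11, 95% interval -0.11 to 0.33). LGALS8, on chromosome 1 from 236681514 to 236716279, had 10.9, 10.4 and 11.7 in vehicle and 16.1, 10.2 and 12.4 after guadecitabine, on the same scale. Guadecitabine 2 was below all vehicle libraries and guadecitabine 1 well above them (log2 fold change 0.24, 95% interval -0.12 to 0.59), and without guadecitabine 1 the log2 fold change was 0.050. LGALS9, on chromosome 17 from 25958174 to 25976586, had 3.95, 3.29 and 3.70 in vehicle and 4.23, 4.77 and 4.22 after guadecitabine. The LGALS9 groups did not overlap, though the difference was small (log2 fold change 0.27, 95% interval -0.13 to 0.66).

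LGALS2 and LGALS4, known from the gut, had few reads. With the floor of detection taken as 3 counts in a library, LGALS2 was at or above it and LGALS4 mostly below it. LGALS2, on chromosome 22 from 37966253 to 37976024 on the minus strand, had 6, 3 and 15 counts in vehicle and 5, 5 and 4 after guadecitabine. LGALS4, on chromosome 19 from 39292311 to 39303740 on the minus strand, had 0, 2 and 8 counts in vehicle and 5, 0 and 2 after guadecitabine. In both genes the highest count was that of vehicle 3, and the groups overlapped. A difference was not detectable at this depth, and a count of 0 allows up to 3 counts for counting error alone.

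**Figure D1:**
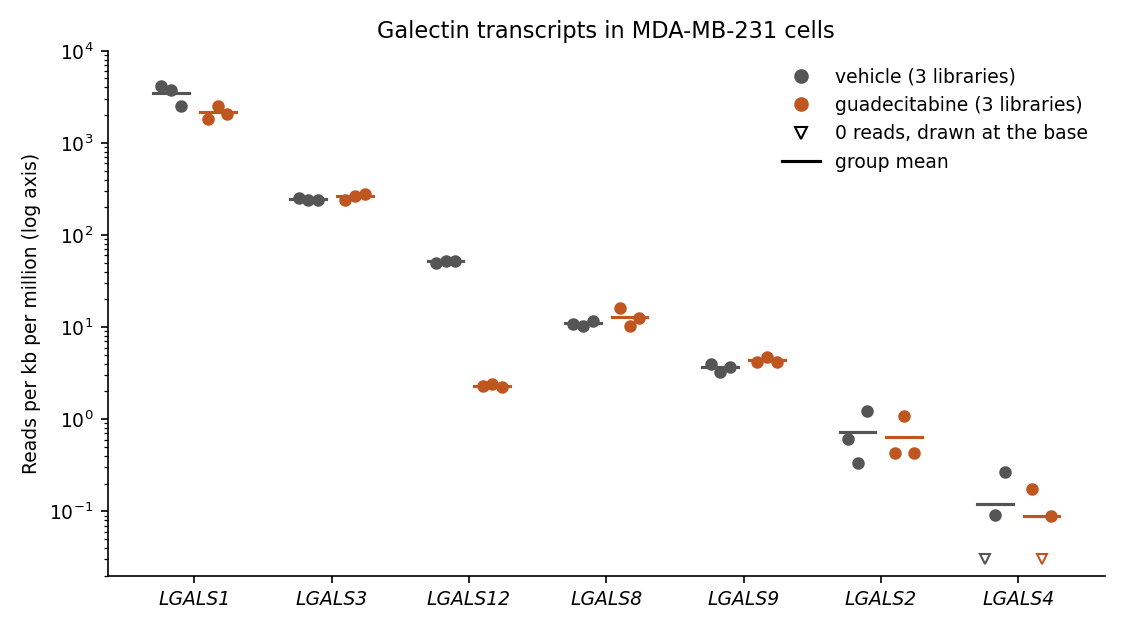
Level of each galectin in RPKM on a log axis, in 3 vehicle (grey) and 3 guadecitabine (orange) libraries, drawn from replicate 1 on the left to replicate 3 on the right, with bars for the group means and open triangles for libraries with 0 reads. LGALS12 falls from 51.5 to 2.297 with no overlap, while the points of LGALS3, LGALS8 and LGALS9 stay near each other.

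Per unit of exon length, the order of the means in vehicle was LGALS1, LGALS3, LGALS12, LGALS8, LGALS9, LGALS2 and LGALS4, and no neighbours in this order shared values. For LGALS2 and LGALS4 this separation rests on few counts in both groups, so their order is uncertain. After guadecitabine, LGALS12 came after LGALS9, with 2.21 to 2.40 against 4.22 to 4.77 RPKM, and again no neighbours overlapped. This last step depended on the length used. With the longer union of GENCODE exons, the means after guadecitabine were 1.70 for LGALS12 and 1.29 for LGALS9, so that their order turned. The 7 levels summed to 3813 ± 862 RPKM in vehicle and 2425 ± 371 after guadecitabine, and to 1987 ± 450 and 1249 ± 194 with the GENCODE lengths. With the deposited lengths, LGALS1 made up 91.6% ± 2.08 of this sum in vehicle and 88.2% ± 1.44 after guadecitabine, LGALS3 6.60% ± 1.54 and 10.9% ± 1.27, and LGALS12 1.41% ± 0.395 and 0.0959% ± 0.0122 (SD, n = 3 each).

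By the test across all genes, edgeR's quasi-likelihood test with an adjusted p under 0.05, 37.7% of the genes tested differed between the groups, 19.3% being higher and 18.4% lower after guadecitabine. Of the 5 galectins tested, 2 were past this threshold, LGALS12 and LGALS1, both lower, and 0 were higher. As the genes were chosen with these differences known, nothing is read from this count. The median log2 fold change of the 5 was 0.11, beside 0.018 over all genes tested. Omitting 1 library moved the LGALS1 value to between -0.90, without vehicle 3, and -0.56, without vehicle 1, on the log2 scale. LGALS1 was no longer past the threshold without vehicle 1, vehicle 2, guadecitabine 1 or guadecitabine 3, whereas LGALS12 was past it in every such run. These runs reuse the differences by which the genes were known, so they are no separate support for either gene.

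**Figure D2:**
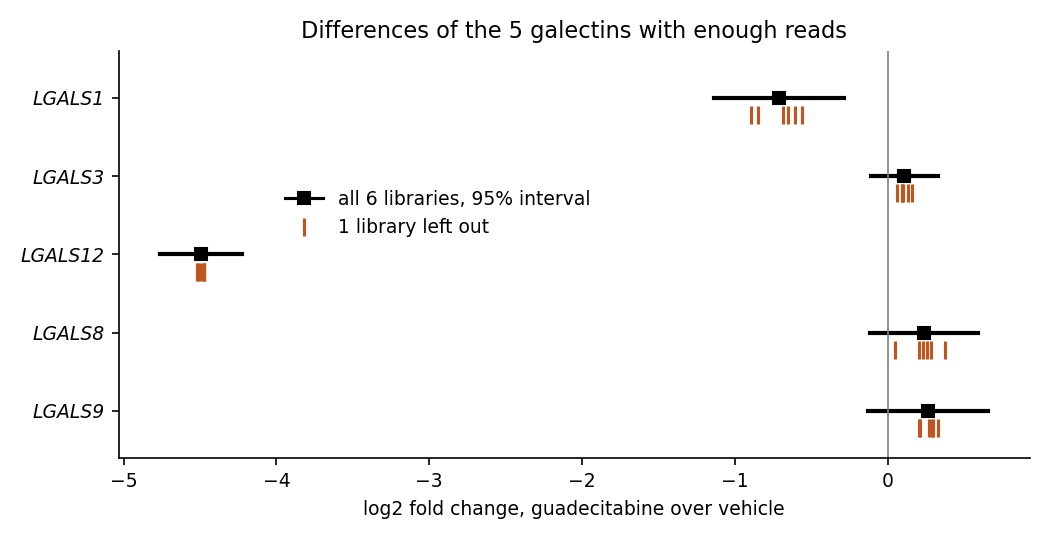
log2 fold change of guadecitabine over vehicle for the 5 galectins in the fit (squares) with 95% intervals (lines), and the same value with 1 library left out (orange ticks). LGALS12 stays between -4.52 and -4.47, LGALS1 ranges from -0.90 to -0.56, and the intervals of LGALS3, LGALS8 and LGALS9 cross 0.

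The libraries differed in depth, with 8792127 to 22277442 counts, and vehicle 3 stood apart. It had 20 transcripts at 0 counts, against 1593 to 2517 in the other libraries. In vehicle 3, 1760 transcripts with at most 1 count in vehicle 1 and in vehicle 2, and at most 3 counts in the guadecitabine libraries together, had a median of 8.02 reads per kb. LGALS4 had 6.25 reads per kb in vehicle 3 and LGALS2 had 28.4. Of these transcripts, 31.3% had no more reads per kb in vehicle 3 than LGALS4, and 97.2% no more than LGALS2. The part of this background in the counts of LGALS2 and LGALS4 was not tested.

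The markers of the line were checked too. VIM, CD44, EGFR, CAV1 and AXL were expressed in all libraries, but their levels moved in both directions. CD44 had 771 to 898 CPM in vehicle and 1887 to 2003 after guadecitabine. CAV1 had 1033 to 1130 and 408 to 557, and AXL 1174 to 1457 and 512 to 597. VIM and EGFR had log2 fold changes of 0.33 and 0.25. ESR1 and PGR, absent from triple-negative cells, were at or near 0 outside vehicle 3. ERBB2, the remaining receptor of that definition, had 101, 100.3 and 85.1 CPM in vehicle and 53.0, 62.7 and 56.3 after guadecitabine. EPCAM had 17.4 to 20.1 CPM in vehicle and 10.2 to 13.1 after guadecitabine, and CDH1 1.47 to 3.75 and 0.682 to 0.904. Of 13 leukocyte markers 9 were in the table. Their summed level was 174 to 204 CPM in vehicle and 419 to 438 after guadecitabine, of which CD68 carried the most. CD14 had 7.72 to 11.1 CPM in vehicle and 9.18 to 10.3 after guadecitabine. LYZ had 0.690 to 1.65 and 1.08 to 1.48, PRG2 0.531 to 1.12 and 0.451 to 0.795, and ITGAM 0.106 to 1.25 and 0.395 to 0.542. MS4A1, PTPRC, CD163 and EPX were at or near 0 outside vehicle 3. The 5 adipocyte markers in the table summed to 1.00 to 1.70 CPM in vehicle 1 and 2, 6.21 in vehicle 3 and 2.50 to 2.87 after guadecitabine. Of these, ADIPOQ and LEP were at 0 outside vehicle 3, whereas LPL had 0.825 to 2.11 CPM in vehicle and 1.13 to 1.81 after guadecitabine, and CIDEC 0 to 1.03 and 0.909 to 1.69. The 3 gut markers summed to 0.106 to 0.177 CPM in vehicle 1 and 2, 5.09 in vehicle 3 and 0.678 to 1.36 after guadecitabine. The part of these levels in the galectin differences was not tested.

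Of 11 further galectin genes and relatives, 6 were in the table. LGALSL, a galectin-related protein, had 147, 102 and 170 counts in vehicle and 230, 84 and 183 after guadecitabine. Scaled to library size, this was 7.82, 6.01 and 7.33 CPM in vehicle and 10.4, 9.54 and 10.3 after guadecitabine, with no overlap. LGALSL rose by a log2 fold change of 0.52 (SE 0.16, edgeR adjusted p = 0.0328). Its call was lost without vehicle 1, vehicle 2, guadecitabine 1 or guadecitabine 3, with edgeR adjusted p from 0.0556 to 0.126. LGALS9C had 4, 2 and 13 counts in vehicle and 10, 7 and 12 after guadecitabine (log2 fold change 1.02, edgeR adjusted p = 0.324). Without vehicle 3 the log2 fold change of LGALS9C was 1.81 (edgeR adjusted p = 0.0309). LGALS7, LGALS7B, LGALS9B and LGALS14 were not tested, with 0 to 4 counts in each library other than vehicle 3. In vehicle 3 they had 17, 9, 2 and 12 counts, and LGALS14 had none in any other library.

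LGALS9 shares sequence with its copies LGALS9B and LGALS9C, so the reads of these genes are uncertain. Of all stretches of 50 bases in the GENCODE transcripts of LGALS9, 13.2% also occurred in another gene, and 6.95% in LGALS9C. The first 60 coding bases on chromosome 17 of GRCh37, printed 5′ to 3′, differed at 4 positions among the 3 genes, which are in capitals, with 3 differences between LGALS9 and LGALS9B and 4 between LGALS9 and LGALS9C.
LGALS9: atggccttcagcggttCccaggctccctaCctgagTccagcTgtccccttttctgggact
LGALS9B: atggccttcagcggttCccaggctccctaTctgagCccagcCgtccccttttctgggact
LGALS9C: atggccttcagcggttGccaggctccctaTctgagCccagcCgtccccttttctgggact
LGALS8 shared 24.6% of its stretches with other genes, 19.8% with HEATR1, which lies on the opposite strand. The strand setting of the counting is not given in the sources used here, and reads of the overlap cannot be told apart. LGALS12, LGALS1 and LGALS2 shared 0% and the copies LGALS7 and LGALS7B shared 51% and 65%.

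The genes whose libraries followed LGALS12 most closely were sought among the genes tested, by the distance between their centred log2 CPM over the 6 libraries. The nearest were SLC47A1, an exporter of organic cations, at a distance of 0.94, SOX4, a transcription factor, at 1.05, PCDHB11, a protocadherin, at 1.06, GNG7, a G protein subunit, at 1.11 and BZRAP1 at 1.19. Their log2 fold changes were -4.08, -3.66, -4.20, -4.05 and -3.60. These genes were picked for this pattern, so the values are a description.

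The neighbours of LGALS12 on chromosome 11, looked up after its value was known, moved in both directions. HRASLS5, RARRES3, HRASLS2 and PLA2G16 belong to a family of phospholipases and acyltransferases. RARRES3, 20027 bp beyond the end of LGALS12, had 232, 221 and 242 CPM in vehicle and 89.9, 98.7 and 103 after guadecitabine. HRASLS5, which ends 14844 bp before LGALS12, had 4.31, 4.60 and 5.00 in vehicle and 9.13, 6.36 and 6.43 after guadecitabine. Of these genes RARRES3 had lower values after guadecitabine and HRASLS5 higher ones, and in neither did the groups overlap. The log2 fold change of HRASLS5 was 0.67, and from 0.46 to 0.75 with 1 library left out. HRASLS2 had a log2 fold change of 2.16, PLA2G16 of -0.60 and ATL3 of 0.014, the last with overlapping groups. SLC22A10, SLC22A25 and SLC22A24 had counts in vehicle 3 and in no other library.

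**Figure D3:**
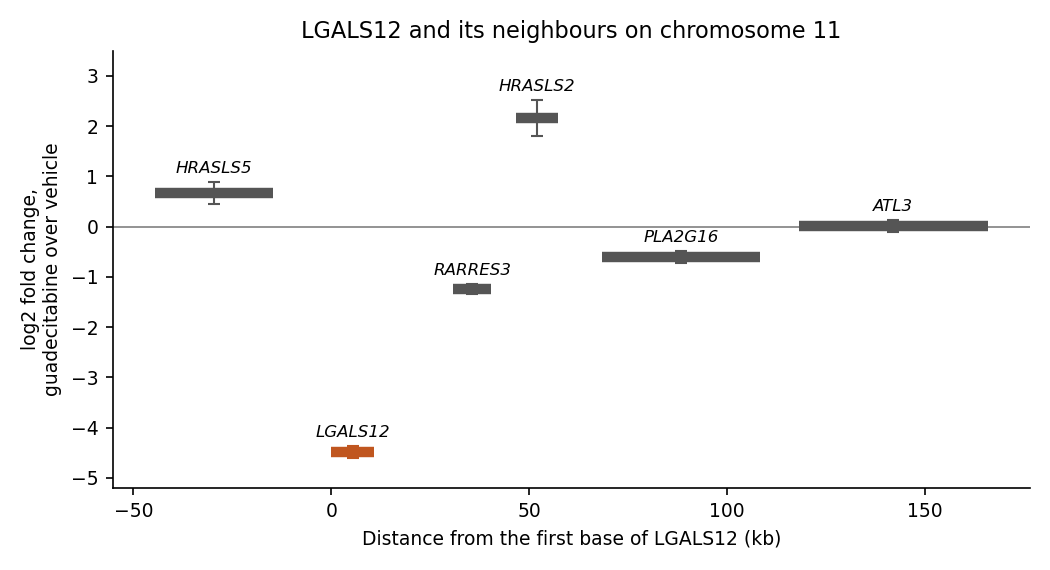
log2 fold change of guadecitabine over vehicle (with SE) against distance from the first base of LGALS12 in kb on chromosome 11, each bar spanning the gene. LGALS12 is at -4.49, whereas RARRES3 next to it is at -1.25, HRASLS5 at 0.67, HRASLS2 at 2.16 and ATL3 at 0.014.

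Galectins act on sugars that other enzymes build, so the genes of these enzymes and the known partners of galectins were also counted, from lists drawn up with earlier results of these data known. The percentages above are the background for these counts. N-glycan branching adds the antennae that carry galectin ligands. Its list also holds genes of other steps, such as the trimming mannosidases and FUT8, so the counts are not of antenna addition alone. It had 13 of its 14 genes tested, of which 5 rose, 4 fell and 4 did not pass the test (median log2 fold change 0.30). MGAT5, which makes the branch favoured by LGALS3, had 38.9, 32.1 and 33.7 CPM in vehicle and 53.6, 58.5 and 51.3 after guadecitabine, with no overlap (log2 fold change 0.64, SE 0.11, edgeR adjusted p = 0.0023). MGAT4A rose by 1.02, MGAT1, which starts complex N-glycans, by 0.83 and the mannosidase MAN1A2 by 0.68, all on the log2 scale. MAN1A1 fell by 1.32, MGAT5B by 1.14 and MAN2A2 by 0.38 on the log2 scale. The call of MAN2A2 was lost without vehicle 1, vehicle 2, guadecitabine 1 or guadecitabine 3 (edgeR adjusted p from 0.0695 to 0.156), and the number that fell was 2 without vehicle 1, vehicle 2 or guadecitabine 3.

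The list for N-acetyllactosamine, the galactose-bearing unit that galectins bind, had 17 tested genes of 20 in the table. Of these, 6 rose, 2 fell and 9 did not pass (median log2 fold change 0.32). The largest rise was that of B3GNT7, which extends such chains, with 3.40, 3.66 and 4.18 CPM in vehicle and 18.6, 25.6 and 21.0 after guadecitabine (log2 fold change 2.52, SE 0.17, edgeR adjusted p = 9.72e-06). No B3GNT7 library of one group reached the range of the other. B3GNT3 rose by 1.09, B3GALT4 by 1.07 and B3GNT2, the main polylactosamine enzyme, by 0.46 on the log2 scale. B4GAT1 fell by 0.90 and B3GNT9 by 0.74. B4GAT1 and B3GALT4 were listed as relatives of these enzymes, so the counts are not of N-acetyllactosamine synthesis alone. B4GALT1, which adds the galactose, had a log2 fold change of -0.18 (edgeR adjusted p = 0.175).

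Of 15 tested genes in the list for O-glycan cores, 6 fell, 0 rose and 9 did not pass (median log2 fold change -0.17). Those called were 40% of the tested list, beside 37.7% of all genes tested in either direction and 18.4% lower. The genes that fell were GALNT2, GALNT5, GALNT6, GALNT10, GALNT11 and GCNT1. The GALNT genes begin O-glycans, so the counts are not of core synthesis alone. GALNT10 and GALNT5, which begin O-glycans, fell by 1.33 and 1.10 on the log2 scale, and GALNT6 by 0.70. GALNT10 had 251, 229 and 199 CPM in vehicle and 87.9, 92.6 and 89.5 after guadecitabine, so that each guadecitabine library was below each vehicle library. GCNT1, which makes the core 2 branch bound by LGALS1, had 31.6, 28.2 and 27.9 in vehicle and 21.2, 18.3 and 18.7 after guadecitabine (log2 fold change -0.59, SE 0.11, edgeR adjusted p = 0.0037). C1GALT1, which makes core 1, had a log2 fold change of 0.057 (edgeR adjusted p = 0.765). Without vehicle 3, 1 gene, GCNT3, was called higher; it was named after its value was seen.

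Sialic acid caps can block or alter galectin binding. Of 13 tested genes of this list, 2 rose, 1 fell and 10 did not pass (median log2 fold change -0.087). ST3GAL3 fell by 1.23 on the log2 scale, with 23.6, 25.1 and 25.2 CPM in vehicle and 11.1, 9.77 and 10.3 after guadecitabine. ST6GALNAC5 rose by 1.79 and ST3GAL4 by 0.44. Without vehicle 3 the log2 fold change of ST6GALNAC5 was 2.57. ST6GALNAC5 was no longer called without vehicle 1, guadecitabine 1 or guadecitabine 3 (edgeR adjusted p from 0.0511 to 0.0564), nor was ST3GAL4 without vehicle 1, guadecitabine 2 or guadecitabine 3 (edgeR adjusted p from 0.0616 to 0.0963). ST6GAL1, whose alpha-2,6 sialic acid blocks LGALS1, had 31, 19 and 47 counts in vehicle and 16, 5 and 2 after guadecitabine (log2 fold change -1.77, SE 0.68, edgeR adjusted p = 0.0681). Without vehicle 3 it was -1.56 (edgeR adjusted p = 0.0367), and then 4 genes were called lower, ST6GALNAC6, ST8SIA1, ST6GAL1 and ST3GAL3. Without guadecitabine 2, 3 were called lower.

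The glycoproteins bound by galectins had 28 tested genes of 34, and 7 rose, 7 fell and 14 did not pass (median log2 fold change -0.098). MCAM, an adhesion molecule, rose from 75.2, 73.5 and 65.4 to 254, 313 and 282 CPM (log2 fold change 1.99, SE 0.12, edgeR adjusted p = 3.96e-06). ITGB4, an integrin chain, fell by 2.32, LAMA5, a laminin chain, by 1.27, NRP1 by 1.21 and LGALS3BP, the secreted glycoprotein named for its binding to LGALS3, by 0.65 on the log2 scale. LGALS3BP had 791, 784 and 744 CPM in vehicle and 424, 571 and 483 after guadecitabine, with no overlap. CTLA4 had 0, 1 and 9 counts in vehicle and 78, 27 and 49 after guadecitabine (log2 fold change 4.22, edgeR adjusted p = 0.0041), a value that depends on the few vehicle reads, most of them in vehicle 3. Without vehicle 3 the log2 fold change of CTLA4 was 6.47, and without vehicle 1 it was 3.69. LAMP3 rose by 1.89 on the log2 scale, or by 2.82 without vehicle 3 and 1.52 without vehicle 2, and its call was lost without vehicle 1 or guadecitabine 3 (edgeR adjusted p = 0.0576 and 0.0653).

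Partners of galectins inside the cell, listed as proteins that work with galectins and not only those bound by them, had 18 tested genes. Of these, 2 rose, 4 fell and 12 did not pass (median log2 fold change 0.026). BCL2, the apoptosis inhibitor with which LGALS3 associates, fell by 1.03, GTF2I by 0.88 and TFEB, a lysosomal transcription factor, by 0.75 on the log2 scale. NRAS rose by 0.58 and TSG101 by 0.29. CALCOCO2, which LGALS8 recruits to damaged endosomes, and TRIM16, which LGALS3 binds, had log2 fold changes of 0.29 and 0.079 (edgeR adjusted p = 0.200 and 0.567). The call of TSG101 was lost on leaving out any library other than guadecitabine 2, with edgeR adjusted p from 0.0814 to 0.169, that of BCL2 without vehicle 1 or guadecitabine 3 (0.101 and 0.0789), and that of NRAS without vehicle 1 (0.065). CALCOCO2 was called higher without guadecitabine 2 (edgeR adjusted p = 0.0211).

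**Figure D4:**
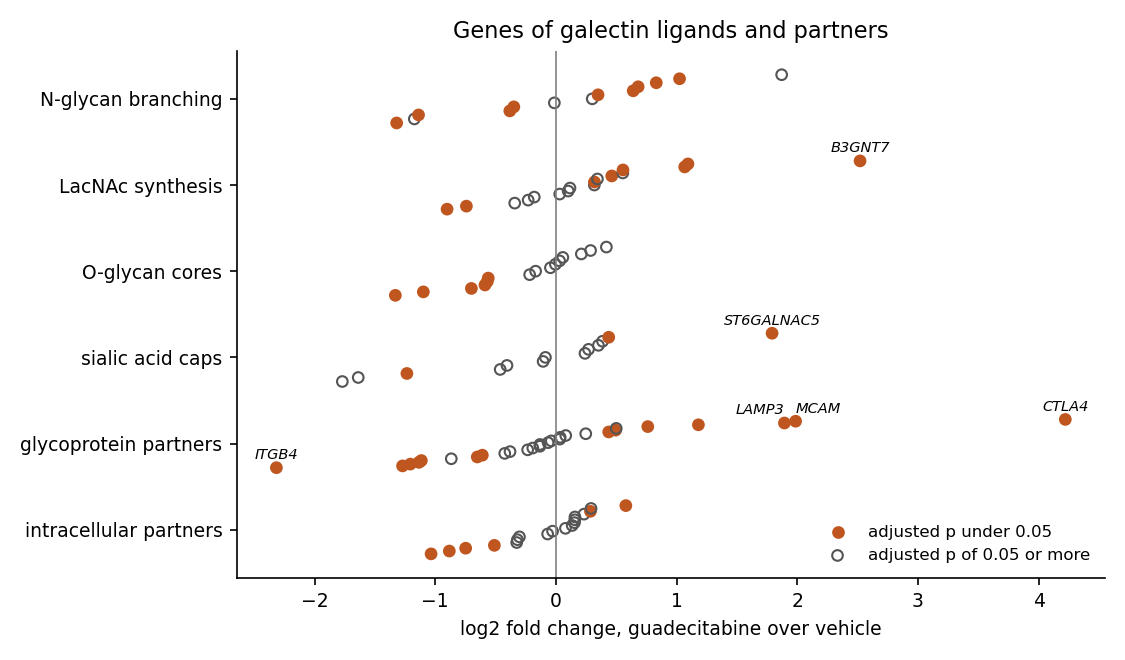
log2 fold change of guadecitabine over vehicle for every tested gene of the 6 lists of galectin ligands and partners, with filled circles for an edgeR adjusted p under 0.05. B3GNT7 at 2.52, MCAM at 1.99 and CTLA4 at 4.22 lie farthest to the right and ITGB4 at -2.32 farthest to the left. The filled circles of the O-glycan cores list, mostly GALNT genes, are all on the left.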

How the data were processed

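MDA-MB-231 libraries were assigned to vehicle or guadecitabine by their labels. The authors aligned reads to hg19 with STAR 2.3.1z, per the labels and the paper's methods, counted them in exons with iRNA-seq and deposited raw counts per RefSeq transcript with the exon length in bp. The 6 columns of regularized log values and the columns of the authors' own DESeq2 comparison were not used. The test was that of edgeR 4.0.16 under R 4.3.3 (TMM, filterByExpr with a minimum count of 10, quasi-likelihood test, Benjamini-Hochberg adjustment over 13322 genes, threshold 0.05), checked on simulated counts. Levels are TMM-scaled CPM, and RPKM where divided by exon length in kb. Intervals of log2 fold changes use the standard error from the F statistic. Alternatives were a replicate block, DESeq2 1.42.0, other scalings and filters, each library left out and GENCODE 44 exon lengths.

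The galectins and all lists were chosen with earlier results of these data known. The text names all galectins, nearest genes to LGALS12, and in each list the 3 called genes with the largest change per direction plus 9 preset enzymes and partners. Promoters came from RefSeq. One marker of the cell type lists is not reported here. Each library held 8792127 to 22277442 counts, and the floor of 3 counts covers counting error only, since reads are not independent molecules.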

Additional observations from a re-analysis of the deposited data

How the results depend on the processing

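Vehicle 3, with reads at nearly every transcript, and guadecitabine 2, with the fewest reads, limit what can be said of low galectins. The same replicate numbers did not deviate together (correlations -0.050, 0.049 and -0.037). With 3 libraries per group, and with vehicle 3 and guadecitabine 2 apart, this cannot decide whether equal numbers share an experiment. With the replicate block, 2424 genes were higher and 2230 lower, against 2576 and 2446, 1 intracellular partner was higher and 2 sialic acid genes were lower, and LGALSL, MAN2A2, TSG101 and HRASLS5 were no longer called. HRASLS5 also lost its call without vehicle 1, vehicle 2, guadecitabine 1 or guadecitabine 3 (edgeR adjusted p from 0.0585 to 0.131, against 0.0353 with all libraries).

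The log2 fold change of LGALS12 stayed within -4.52 to -4.47 with each library left out. In the same runs those of LGALS3, LGALS8 and LGALS9 ranged over 0.063 to 0.16, 0.050 to 0.38 and 0.20 to 0.33. Sialic acid genes called lower were 4 by DESeq2, 2 with library totals only and 2 with at least 10 counts in every library. Without the filter 2 N-glycan branching genes were lower and 1 intracellular partner higher.

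Leaving out each library gave 1706 to 3002 genes higher and 1629 to 2575 lower, the lowest without guadecitabine 3, and 1 to 2 galectins lower. The ranges were 0 to 2 higher and 1 to 4 lower for sialic acid caps, 0 to 3 higher for intracellular partners, 2 to 3 lower for N-glycan branching and 0 to 1 higher for O-glycan cores. The log2 fold change turned in sign for ATL3, to -0.095 without vehicle 3 and -0.042 without guadecitabine 1 (range to 0.10), and for C1GALT1, to -0.094 without guadecitabine 1 (range to 0.14). The cause of these changes was not tested. With GENCODE exon lengths the levels per kb were 1.35 times lower for LGALS12, 1.91 for LGALS1, 2.20 for LGALS3, 2.33 for LGALS8 and 3.43 for LGALS9, in both groups.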
